A study of Mus musculus with 32 samples.

Results

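The transcriptome of activated mouse regulatory T cells (Tregs) that were costimulated through 4-1BB was compared with that of Tregs activated without an agonist, after 36 h of culture. The comparison rests on 6 of the 32 libraries of the study, 3 from cultures with the agonist and 3 from control cultures, which were chosen by their labels and not by any measured value. All cells came from C57BL/6 mice aged 2.5 months that carry a Foxp3-IRES-GFP knock-in, in which green fluorescent protein is made together with Foxp3, and were purified as GFP-positive cells. Both groups were activated by plate-bound anti-CD3 and anti-CD28, and received 10 ng/ml of mouse IL-2. The agonist group also received the 4-1BB antibody 3H3 at 10 µg/ml, and the control group received no agonist; the labels name no control antibody. Groups used for reference were the same agonist and control at 18 h and, at 36 h, agonists of TNFR2 (TNC-sc(mu)TNF80, also named STAR2, at 12 ng/ml), OX40 (OX40L at 100 ng/ml) and DR3 (TL1A at 12 ng/ml), with 3 libraries each. The labels do not say whether replicates were separate cultures or animals, or how many mice were pooled, so p-values measure only the spread between libraries.

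4-1BB is a receptor of the TNF receptor superfamily, encoded by Tnfrsf9, that T cells put on their surface after activation and that is abundant on activated Tregs. Its ligand, encoded by Tnfsf9, or an agonistic antibody clusters the receptor, which recruits the adaptors TRAF1 and TRAF2 with the ubiquitin ligases cIAP1 and cIAP2. These start both the classical NF-kB pathway, held back by IkB proteins, and the alternative pathway, in which the kinase NIK leads to processing of the precursor p100, the product of Nfkb2. Several inhibitors of the pathway, among them Nfkbia and Tnfaip3, are themselves NF-kB target genes.

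The 6 libraries held 19923238 to 24319121 expected counts each, and 14313 genes were tested across the series. Levels are given as CPM, counts per 1e6 after scaling of the library totals, in the order of replicates 1, 2 and 3, and means as mean ± SD of 3 libraries. A fold change is the ratio of agonist to control, on a log2 scale with its SE. A gene was called when its edgeR quasi-likelihood p-value, adjusted by Benjamini-Hochberg over all genes tested, was below 0.05, and "rose" and "fell" are used of called genes only. The transcript annotated at a ribosomal RNA locus (RP23-81C12.3) took, before that scaling, 3246, 741.4 and 849.4 CPM in the controls and 2765, 1955 and 2223 CPM with the agonist. Control replicate 1 thus lay above every agonist library, and control replicates 2 and 3 lay below every one. Xist and the Y-linked gene Ddx3y were both present in each of the 6 libraries, at 614.1 to 715.0 CPM and 41.9 to 56.1 CPM, so each library held RNA of female and male cells.

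With the 4-1BB agonist 3215 genes differed from control, 22.5% of those tested: 1566 (10.9%) were higher and 1649 (11.5%) were lower. Most changes were small: over the called genes the median size of the log2 fold change was 0.28, and the median over all genes tested was 0.00. A rise of at least 2-fold was called for 210 genes (1.47%) and a fall of at least 2-fold for 139 genes (0.971%). Fewer genes are tested under a stricter low-count filter, and these counts were then 76 and 56. The 3 agonist libraries lay wholly above or wholly below the 3 controls for 5217 genes (36.4%), which included many genes that were not called. Scin, the gene of an actin-severing protein, and the cytokine genes Csf2 (GM-CSF) and Il13 rose, as did 7 of 11 genes of NF-kB subunits and IkB proteins, of which 1 fell. Of 27 effector Treg genes 16 fell and 5 rose, and Foxp3 was not called. The plot of level against change marks the leading genes.

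**Figure D1:**
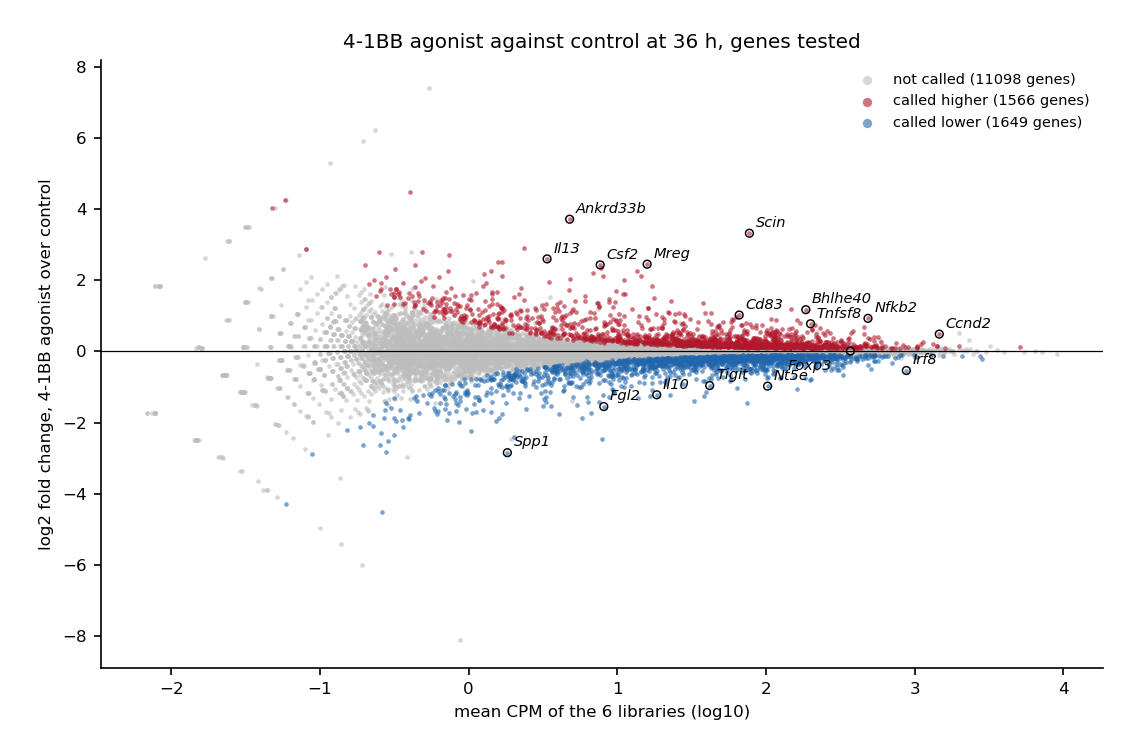
Each point is a gene, placed by its mean CPM over the 6 libraries at 36 h (x axis, log10) and its log2 fold change of 4-1BB agonist over control (y axis), with 1566 genes called higher in red, 1649 called lower in blue and the others in grey. Scin lay at a log2 fold change of 3.32 and Foxp3 at 0.01, and 52 genes that were tested in the series but at 0 in all 6 libraries are not drawn.

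The antibody acts on the 4-1BB protein, so no transcript checks the labels directly, and the receptor's own transcript is given first. Tnfrsf9 (ENSMUSG00000028965, mm10 chr4:150914562-150946102) stood at 439, 429 and 433 CPM in the controls and at 499, 483 and 493 CPM with the agonist. Every agonist library lay above every control library, by a small margin, and the rise was called (0.18 ± 0.04, adjusted p = 0.000109). Measured per transcript length by the authors' TPM, Tnfrsf9 was at 457 ± 9.41 TPM in the controls, Tnfrsf18, the gene of the costimulatory receptor GITR, at 463 ± 11.9, Tnfrsf4 (OX40) at 1015 ± 56.3, Tnfrsf1b (TNFR2) at 151 ± 3.66 and Tnfrsf25 (DR3) at 22.7 ± 1.07. In the order of these levels OX40 came first and DR3 last, and the neighbours Tnfrsf18 and Tnfrsf9 did not differ beyond their SDs. Foxp3, the transcription factor that defines Tregs, was at 371, 368 and 367 CPM in the controls and 355, 380.2 and 381 CPM with the agonist. Its groups overlapped and it was not called (0.01 ± 0.04, adjusted p = 0.852), and Ikzf2, which encodes the Treg factor Helios, was not called either (0.03 ± 0.07, adjusted p = 0.853).

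Among TNF receptor superfamily genes, 23 of 26 were tested, of which 8 were higher, 4 were lower and 11 were not called, with a median log2 fold change of 0.03. That is 34.8% higher and 17.4% lower, beside 10.9% and 11.5% of all genes tested. Counts for the lists below are to be read beside the same shares over all genes. All the lists were chosen with earlier results of these data known. The largest rise was that of Tnfrsf11a, which encodes RANK, from 0.881, 0.448 and 0.575 CPM to 2.73, 2.95 and 2.57 CPM (2.11 ± 0.24, adjusted p = 8.9e-10). These are low levels, and every agonist library still lay far above every control. Cd40, the costimulatory receptor best known on antigen-presenting cells, rose from 2.18, 2.46 and 2.96 CPM to 6.61, 6.44 and 5.55 CPM (1.28 ± 0.17, adjusted p = 7.79e-08). Fas, the death receptor, rose from 22.3, 20.8 and 22.1 CPM to 35.6, 36.5 and 34.4 CPM (0.71 ± 0.06, adjusted p = 9.05e-14), again without overlap. Relt, Tnfrsf10b, Tnfrsf8 (CD30) and Tnfrsf18 rose by less, with log2 fold changes of 0.28, 0.21, 0.16 and 0.15, and that of Tnfrsf8 was not called without control replicate 2 (adjusted p = 0.0513).

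The TNFR2 gene Tnfrsf1b moved the other way, from 333, 316 and 335 CPM in the controls to 230.3, 239 and 238 CPM with the agonist (-0.48 ± 0.04, adjusted p = 1.08e-15). All agonist libraries lay well below the lowest control. Cd27, a receptor of resting and memory lymphocytes, fell from 47.5 ± 1.73 to 36.2 ± 1.21 CPM (-0.39 ± 0.05). Tnfrsf21 and the low Tnfrsf13c, the gene of the B cell survival receptor BAFF-R, also fell, with log2 fold changes of -0.52 and -0.97. Tnfrsf21 was not called without agonist replicate 1 or 3 or control replicate 2 (adjusted p = 0.0515, 0.0561 and 0.102), nor Tnfrsf13c without agonist replicate 2 or 3 or control replicate 1 or 2 (0.0907, 0.0923, 0.0579 and 0.135). Tnfrsf4 and Tnfrsf25, the genes of OX40 and DR3, had log2 fold changes of -0.05 ± 0.04 (adjusted p = 0.352) and 0.10 ± 0.08 (adjusted p = 0.399) and were not called.

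Of 17 TNF superfamily ligand genes 14 were tested, and 5 rose while 6 fell, with a median log2 fold change of -0.10. Tnfsf8, the gene of the CD30 ligand, rose from 144, 148 and 149 CPM to 255, 255 and 247 CPM (0.78 ± 0.04, adjusted p = 1.87e-20). Tnfsf9, the gene of the 4-1BB ligand, rose from 3.80, 3.67 and 3.66 CPM to 6.31, 5.39 and 5.97 CPM (0.67 ± 0.13, adjusted p = 6.88e-05), so a low transcript of the receptor's own ligand was higher in all 3 agonist libraries. Cd70, the ligand of CD27, and Tnfsf15, which encodes the DR3 ligand TL1A, rose at similarly low levels, from 0.531 ± 0.195 to 1.48 ± 0.23 CPM (1.47 ± 0.30) and from 1.27 ± 0.342 to 3.46 ± 0.441 CPM (1.45 ± 0.23). Ltb, which encodes lymphotoxin beta, rose by 0.15 on the log2 scale, which was not called without agonist replicate 1 or 2 or control replicate 2 (adjusted p = 0.0935, 0.0539 and 0.199).

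Tnf itself, the classical ligand of TNFR2, fell from 111, 113 and 125 CPM to 82.3, 82.9 and 82.7 CPM (-0.49 ± 0.04, adjusted p = 3.95e-13). The agonist libraries were close together and all below the controls. The other ligands that fell were Tnfsf10 (TRAIL), Cd40lg, Tnfsf11 (the RANK ligand), Tnfsf14 (LIGHT) and Lta (lymphotoxin alpha), with log2 fold changes of -0.51, -0.43, -0.39, -0.37 and -0.16. Thus Tnfrsf11a rose while the gene of its ligand fell, and Cd70 rose while the gene of its receptor fell.

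Among 31 genes of TRAF adaptors and signalling close to the receptor, 11 were higher and 6 lower, with a median log2 fold change of 0.02. Traf1, the adaptor that binds 4-1BB and is itself NF-kB induced, rose from 159, 156 and 166 CPM to 262, 268 and 269 CPM (0.73 ± 0.03, adjusted p = 6.34e-23). Traf2, the other main adaptor of 4-1BB, rose only slightly, from 49.9 ± 3.16 to 55.8 ± 1.28 CPM (0.16 ± 0.05, adjusted p = 0.0263), and was not called without agonist replicate 1 or 3 or control replicate 2 (adjusted p = 0.0559, 0.103 and 0.207). Birc2 and Birc3, which encode cIAP1 and cIAP2, rose by 0.61 ± 0.05 and 0.22 ± 0.04 on the log2 scale. Traf4, which encodes another adaptor of the family, rose by 0.36 ± 0.05.

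Deubiquitinases and ubiquitin-binding inhibitors that end NF-kB signalling were among the genes that rose. Tnfaip3, which encodes A20, went from 120.2, 113 and 119 CPM to 175, 189 and 189 CPM (0.65 ± 0.04, adjusted p = 5.33e-18). Its partners Tnip1 and Tnip2 rose by 0.37 ± 0.04 and 0.34 ± 0.06, and Otulin, which removes linear ubiquitin chains, by 0.44 ± 0.05. The genes that fell did so by little. Map3k14, which encodes NIK, had a log2 fold change of -0.18 ± 0.06 and Traf3, whose product holds NIK down, one of -0.14 ± 0.04, while those of Ripk1, Itch, Traf6 and Map3k5 were -0.16 ± 0.04, -0.13 ± 0.04, -0.13 ± 0.03 and -0.12 ± 0.05. Traf5 (-0.16 ± 0.07, adjusted p = 0.0878) was not called. Of the 6 that fell, 4 lost the call under other settings: Traf3 without agonist replicate 1 (adjusted p = 0.0717), Itch without agonist replicate 3 or control replicate 1 or 2 (0.101, 0.0525 and 0.198), Map3k14 without any library but agonist replicate 2 (0.0511 to 0.142) and Map3k5 without any but agonist replicate 3 and control replicate 2 (0.0603 to 0.229). Map3k14 was also not called by DESeq2 (adjusted p = 0.0581), nor was Map3k5 by DESeq2 (0.0744), with DESeq2's size factors in edgeR (0.0508), without a filter on low counts (0.0882) or in a fit of the 6 libraries alone (0.0699).

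Of the 11 genes of NF-kB subunits and IkB proteins, 7 rose and 1 fell, and the median log2 fold change was 0.26. Nfkb2 went from 345, 318 and 341 CPM in the controls to 611, 664 and 637 CPM with the agonist (0.93 ± 0.03, adjusted p = 1.5e-26). The 2 groups were far apart compared with the spread within each. Relb, whose product pairs with the processed form of p100, rose from 60.6, 55.3 and 58.6 CPM to 77.2, 79.9 and 82.5 CPM (0.46 ± 0.05), and Nfkb1, the precursor of p50, from 1032 ± 22.7 to 1238 ± 12.0 CPM (0.26 ± 0.03). The transactivating subunits Rel and Rela were not called, at -0.08 ± 0.04 (adjusted p = 0.177) and 0.12 ± 0.05 (adjusted p = 0.0963).

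Among the inhibitors, Nfkbia went from 186, 171 and 184 CPM to 276, 292 and 280.2 CPM (0.65 ± 0.04, adjusted p = 6.01e-20). Nfkbie went from 33.6, 28.4 and 32.2 CPM to 53.7, 55.0 and 53.02 CPM (0.78 ± 0.05, adjusted p = 1.73e-17), and Nfkbib from 65.9 ± 4.23 to 104 ± 1.08 CPM (0.66 ± 0.04). Bcl3, an atypical IkB protein that acts in the nucleus, rose by 0.24 ± 0.05. Nfkbid, another nuclear IkB protein, was the exception and fell from 122, 116 and 125 CPM to 75.3, 80.1 and 76.7 CPM (-0.64 ± 0.04, adjusted p = 1.81e-17), while Nfkbiz was not called (-0.02 ± 0.10, adjusted p = 0.914).

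The promoters of some feedback genes that rose, and that of Scin, are shown because their letters can be set beside these values. They were not picked by the size of the rise, as had been planned, and do not stand for the genes that rose. They are RefSeq sequences on GRCm38.p6, the patched release of the mm10 assembly, of 300 bases that run from 250 bases before to 50 bases after the start, each on its gene's own strand. Capitals mark matches of the 10-base kB consensus, the DNA pattern bound by NF-kB dimers, searched on both strands.
Nfkb2, chr19:46304487-46304786, plus strand: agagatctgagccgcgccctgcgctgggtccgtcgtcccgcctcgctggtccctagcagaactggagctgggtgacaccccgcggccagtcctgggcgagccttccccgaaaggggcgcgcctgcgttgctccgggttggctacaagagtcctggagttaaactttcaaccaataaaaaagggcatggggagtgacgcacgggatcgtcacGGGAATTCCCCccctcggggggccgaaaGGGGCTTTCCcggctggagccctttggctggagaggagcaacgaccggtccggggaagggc
Nfkbia, chr12:55492598-55492897, minus strand: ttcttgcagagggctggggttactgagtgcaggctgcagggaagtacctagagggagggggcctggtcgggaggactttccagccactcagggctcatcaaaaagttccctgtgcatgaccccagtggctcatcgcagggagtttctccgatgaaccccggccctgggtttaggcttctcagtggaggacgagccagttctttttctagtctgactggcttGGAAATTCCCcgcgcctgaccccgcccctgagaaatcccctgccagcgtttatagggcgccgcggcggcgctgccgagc
Nfkbie, chr17:45555450-45555749, plus strand: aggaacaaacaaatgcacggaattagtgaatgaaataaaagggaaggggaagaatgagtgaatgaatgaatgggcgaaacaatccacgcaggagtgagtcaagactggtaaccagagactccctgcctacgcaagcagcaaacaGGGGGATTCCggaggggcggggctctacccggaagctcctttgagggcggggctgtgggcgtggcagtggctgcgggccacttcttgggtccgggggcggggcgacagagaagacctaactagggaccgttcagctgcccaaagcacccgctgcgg
Tnfaip3, chr10:19015361-19015660, minus strand: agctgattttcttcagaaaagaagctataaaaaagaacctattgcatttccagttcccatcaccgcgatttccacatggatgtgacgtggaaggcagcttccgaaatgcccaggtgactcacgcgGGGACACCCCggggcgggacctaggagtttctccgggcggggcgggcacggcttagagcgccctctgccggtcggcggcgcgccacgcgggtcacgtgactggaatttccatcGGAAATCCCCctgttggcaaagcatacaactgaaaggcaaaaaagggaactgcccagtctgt
Scin, chr12:40134179-40134478, minus strand: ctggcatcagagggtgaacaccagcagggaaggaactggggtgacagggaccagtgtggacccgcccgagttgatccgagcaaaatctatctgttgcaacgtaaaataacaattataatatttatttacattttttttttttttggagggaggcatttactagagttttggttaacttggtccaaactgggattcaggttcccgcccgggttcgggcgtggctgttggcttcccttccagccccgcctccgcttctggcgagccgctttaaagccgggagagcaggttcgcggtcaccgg
Nfkb2 has 3 starts in the table, of which the first is printed, and Tnfaip3 has 2, of which the one not printed holds no match. In the printed Nfkb2 promoter 3 matches begin at -39, -38 and -11 from the start, the first 2 of them overlapping. Nfkbia has 1 match at -29, Nfkbie 1 at -106 and Tnfaip3 2, at -125 and -12, while the Scin window holds no match. Nor do the promoters of Ankrd33b, Il13, Mreg and Csf2, which with Scin had the largest rises of the genes named by fold change. Of the 7 NF-kB and IkB genes that rose, 5 have an entry in the table and 4 of these hold a match in at least 1 promoter (Nfkb2, Nfkbia, Nfkbie and Bcl3, but not Nfkbib). Of the 9156 genes tested that have an entry, 12.4% hold a match in at least 1 promoter, and of all 32851 promoters given there, 8.46% hold one. Only 9156 of the 14313 genes tested, and 129 of the 210 called higher by at least 2-fold, have an entry, so a comparison of shares between gene sets is void. A match is a description of letters and says nothing of binding in these cells.

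Of 33 NF-kB target genes 28 were tested, of which 14 rose and 2 fell, with a median log2 fold change of 0.29. Cd83, an activation marker of dendritic cells and lymphocytes, rose from 44.0, 44.4 and 42.6 CPM to 88.7, 89.0 and 88.1 CPM (1.02 ± 0.04, adjusted p = 7.58e-26). Cd80, a ligand of CD28 and CTLA-4, rose from 16.3, 16.0 and 15.4 CPM to 32.9, 31.9 and 33.3 CPM (1.04 ± 0.07, adjusted p = 5.64e-18), but its relative Cd86 was not called (0.00 ± 0.08, adjusted p = 0.988). Slc2a6, a lysosomal sugar transporter gene, went from 5.66, 4.93 and 6.08 CPM to 16.4, 18.2 and 16.6 CPM (1.61 ± 0.09, adjusted p = 3.52e-19). Icam1, the adhesion ligand of LFA-1, rose from 113 ± 7.45 to 174 ± 5.36 CPM (0.62 ± 0.04), a difference far beyond the SDs.

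The pair that fell was Irf8 and Gbp2. Irf8, a transcription factor of the interferon regulatory family, went from 1067, 990.0 and 1069 CPM to 700.4, 726 and 729 CPM (-0.54 ± 0.04, adjusted p = 2.12e-17). Gbp2, an interferon-induced GTPase gene, fell less (-0.28 ± 0.04). Gbp2 also belongs to the interferon-stimulated genes. Of 32 interferon-stimulated genes 11 fell and 4 rose (median log2 fold change -0.18), among them Isg20, an exonuclease gene, from 7.60 ± 0.822 to 3.79 ± 0.263 CPM (-1.001 ± 0.12), Zbp1 (-0.44 ± 0.06) and Ifit2 (-0.41 ± 0.07), whereas Ifih1 rose (0.29 ± 0.05).

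**Figure D2:**
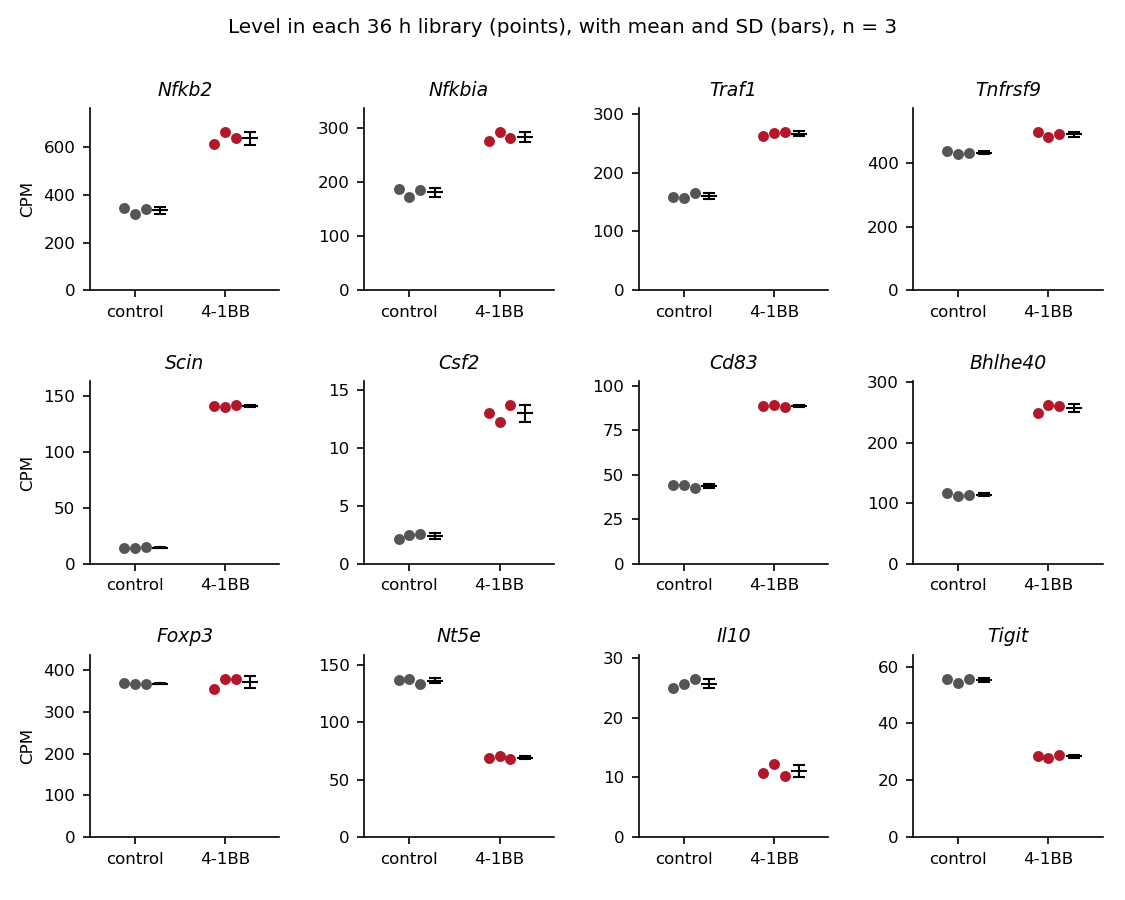
CPM (y axis, from 0) of 12 genes in each of the 3 control (grey) and 3 4-1BB agonist (red) libraries at 36 h, with the mean and SD beside the points. The groups do not overlap for 11 of the genes and overlap for Foxp3, and Scin averaged 14.1 CPM in the controls and 141 CPM with the agonist.

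Scin had the smallest adjusted p-value of the genes named. Its product, scinderin, severs and caps actin filaments and is best known from secretory cells. Scin (ENSMUSG00000002565, mm10 chr12:40059769-40134228) was at 14.01, 13.6 and 14.7 CPM in the controls and at 141, 140.0 and 142 CPM with the agonist, 9.98 times as high (3.32 ± 0.06, adjusted p = 5.62e-38). The spread within each group was small beside that difference, with an SD of 0.879 CPM among the agonist libraries. On the list of 25 actin and cytoskeleton regulators 23 were tested, of which 7 rose and 5 fell (median log2 fold change -0.04). Marcksl1, which encodes a membrane-actin linker, rose from 122 ± 8.37 to 214 ± 4.10 CPM (0.81 ± 0.04), the nuclear lamina gene Lmna by 0.87 ± 0.10 and the filopodial myosin gene Myo10 by 0.57 ± 0.05. Capg, which encodes another actin-capping protein of the gelsolin family, fell from 324, 311 and 341 CPM to 227, 224 and 228 CPM (-0.52 ± 0.04, adjusted p = 2.52e-16).

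The largest fold change among genes of at least 5 CPM in the higher group was that of Ankrd33b, an ankyrin repeat protein gene (ENSMUSG00000022237, mm10 chr15:31291478-31367726). It went from 0.51, 0.627 and 0.863 CPM to 7.57, 9.98 and 9.15 CPM (3.71 ± 0.20, adjusted p = 1.82e-20). The lowest agonist library was thus far above the highest control, but genes ranked by fold change were named only if their groups did not overlap. Mreg, which encodes the melanosome and lysosome transport protein melanoregulin, rose from 5.24, 4.93 and 4.60 CPM to 25.3, 28.01 and 27.3 CPM (2.45 ± 0.08). Cacnb3, a subunit gene of voltage-gated calcium channels, rose from 5.15, 4.48 and 4.40 CPM to 20.7, 24.3 and 21.9 CPM (2.26 ± 0.09), and Kcnh2, a potassium channel gene, from 2.19 ± 0.165 to 7.30 ± 0.343 CPM (1.73 ± 0.14).

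Zbtb46, the transcription factor gene that marks classical dendritic cells, rose from 6.08, 5.83 and 4.44 CPM to 22.3, 23.2 and 24.5 CPM (2.11 ± 0.09, adjusted p = 1.18e-23). Casz1, which encodes a zinc finger transcription factor, rose from 4.41 ± 0.466 to 17.9 ± 3.57 CPM (2.01 ± 0.10), and Adm, which encodes the vasoactive peptide adrenomedullin, from 3.25, 2.87 and 2.88 CPM to 14.2, 13.3 and 11.8 CPM (2.13 ± 0.12). Sema4a, a semaphorin gene, rose from 7.47 ± 0.833 to 26.7 ± 1.42 CPM (1.84 ± 0.08). Ccdc184, Cercam, the neurotrophin receptor gene Ntrk3 and Hspg2, which encodes perlecan, completed the 15 largest rises with log2 fold changes of 2.33, 2.19, 2.04 and 1.96. Of these 15 genes 14 have a promoter entry, and 2 of them, Cercam and Sema4a, hold a kB match. Over all genes tested with an entry 12.4% hold one. The shares are not compared, because many genes tested have no entry.

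Emp1, a membrane protein gene, was among the 15 largest falls and went from 8.997, 9.63 and 8.79 CPM to 3.08, 2.05 and 2.43 CPM (-1.86 ± 0.14, adjusted p = 2.55e-15). Its groups lay far apart, but genes with overlapping groups were left out of the 15 by rule. Tmod1, Myo6 and Mical2, the genes of a tropomodulin, a myosin and an actin oxidase, fell with log2 fold changes of -1.76 ± 0.17, -1.74 ± 0.13 and -1.52 ± 0.17. Xdh (xanthine dehydrogenase), Itih5, Rassf8, Epcam and Ifi209 were among the 15 with log2 fold changes of -1.42, -1.38, -1.28, -1.27 and -1.29; Ifi209 belongs to a cluster of similar genes, and reads can be shared among them.

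Cytokine genes split evenly, with 8 higher and 8 lower of 24 tested (30 listed), and a median log2 fold change of 0.12. Csf2, which encodes GM-CSF, rose from 2.13, 2.46 and 2.59 CPM to 13.0, 12.2 and 13.7 CPM (2.43 ± 0.13, adjusted p = 4.01e-21). Il13, which encodes a type 2 cytokine, rose from 1.07, 0.672 and 1.11 CPM to 6.41, 5.34 and 5.65 CPM (2.60 ± 0.28, adjusted p = 4.6e-09). Both transcripts were low in the controls and higher in each agonist library than in any control, which for Il13 the rule that named it required. Ebi3, a subunit gene of IL-27 and IL-35, rose from 20.9, 16.1 and 20.0 CPM to 38.1, 36.8 and 39.1 CPM (1.00 ± 0.07, adjusted p = 2.08e-16), and Penk, the enkephalin precursor gene that is also a Treg signature gene, from 66.9, 72.3 and 70.0 CPM to 121, 116 and 115 CPM (0.75 ± 0.04, adjusted p = 1.69e-20).

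The suppressive cytokine gene Il10 fell from 25.0, 25.8 and 26.6 CPM to 10.8, 12.2 and 10.3 CPM (-1.22 ± 0.10, adjusted p = 3.42e-13). All agonist libraries lay far below the controls. Spp1, which encodes osteopontin, fell from 2.69, 3.67 and 3.24 CPM to 0.606, 0.399 and 0.327 CPM (-2.84 ± 0.29, adjusted p = 8.41e-11). Among members named after their values were seen, the low type 2 and helper cytokine genes Il5, Il9 and Il21 rose (0.93 ± 0.26, 1.27 ± 0.23 and 1.30 ± 0.43). The type 2 cytokine gene Il4 was not called. Il1a fell (-0.93 ± 0.12), Tgfb1 fell slightly (-0.17 ± 0.04), and Il2 (adjusted p = 0.344) and Ifng (adjusted p = 0.212) were not called. Il21 lost its call without agonist replicate 1 or 2 or control replicate 1 or 3 (adjusted p = 0.0748, 0.0593, 0.114 and 0.0575).

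Of 24 Treg core signature genes 11 fell and 7 rose, with a median log2 fold change of -0.09. Penk and Tnfrsf18 were among those that rose (0.75 and 0.15). The ecto-enzyme gene Nt5e (CD73), which makes adenosine, went from 137, 138 and 133 CPM to 69.1, 70.3 and 68.1 CPM (-0.98 ± 0.04, adjusted p = 4.46e-24). Entpd1 (CD39), the enzyme gene of the step before it and named after its values were seen, fell from 24.4, 25.5 and 24.6 CPM to 14.2, 13.4 and 13.3 CPM (-0.86 ± 0.07, adjusted p = 1.88e-14). Both were lower in every agonist library than in any control. Izumo1r, which encodes folate receptor 4, and Gpr83, a receptor gene that marks Tregs, fell from 254, 244 and 256 CPM to 146, 149.96 and 149 CPM (-0.76 ± 0.03) and from 129 ± 3.59 to 78.1 ± 0.936 CPM (-0.73 ± 0.04). Il2ra, the gene of the high-affinity IL-2 receptor chain CD25, fell slightly, from 2914, 2893 and 2849 CPM to 2644, 2673 and 2626 CPM (-0.12 ± 0.03), and Ctla4 was not called (-0.10 ± 0.04, adjusted p = 0.0843).

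The effector Treg list, genes linked to differentiated and tissue Tregs, had 16 members that fell and 5 that rose of 27 (median log2 fold change -0.18). Tigit, an inhibitory receptor gene, went from 55.8, 54.4 and 55.7 CPM to 28.4, 27.96 and 28.9 CPM (-0.96 ± 0.05, adjusted p = 9.2e-21). Fgl2, which encodes a suppressive secreted protein, went from 12.5, 12.1 and 11.7 CPM to 3.84, 4.69 and 3.87 CPM (-1.55 ± 0.11, adjusted p = 8.95e-16). The costimulatory receptor gene Icos fell from 292 ± 8.33 to 203 ± 7.41 CPM (-0.52 ± 0.04). Among the 3 named, the fall was seen at high and at low levels. Named after their values were seen, the transcription factor genes Maf and Prdm1 (Blimp-1) fell (-0.83 ± 0.07 and -0.57 ± 0.06). Batf, an AP-1 factor gene needed by tissue Tregs, was among the 5 that rose, from 52.96, 48.7 and 53.4 CPM to 89.3, 83.8 and 84.6 CPM (0.73 ± 0.05, adjusted p = 3.13e-17), as were Rora (0.79 ± 0.08), Areg (0.69 ± 0.14) and Id2 (0.37 ± 0.06).

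Genes of resting and recirculating T cells also fell more often than they rose, 14 against 4 of 25, with a median log2 fold change of -0.23. Klf2, a transcription factor gene of quiescence and migration that acts upstream of S1pr1, went from 10.7, 8.07 and 9.04 CPM to 3.68, 3.05 and 3.64 CPM (-1.42 ± 0.15, adjusted p = 9.86e-09). Every agonist library lay far below the lowest control, but the rule that named Klf2 required groups that did not overlap. The transcription factor gene Foxp1 fell from 251 ± 12.2 to 145 ± 3.23 CPM (-0.79 ± 0.05), and Igfbp4 and Il6ra fell too (-1.21 ± 0.07 and -0.57 ± 0.05). Satb1, a chromatin organiser gene of T cells, rose from 83.9 ± 1.37 to 133 ± 4.39 CPM (0.66 ± 0.05). Ccr7, the lymph node chemokine receptor gene, rose from 255, 242 and 248 CPM to 315, 321 and 324 CPM (0.37 ± 0.03). S1pr1 and Txnip were the other members that rose.

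Of 25 chemokine and chemokine receptor genes tested, 9 fell and 5 rose (median log2 fold change -0.11). The tissue homing receptor genes Cxcr6 and Cxcr3 fell, Cxcr6 from 20.1, 18.6 and 20.2 CPM to 8.73, 8.29 and 6.77 CPM (-1.31 ± 0.10), and Cxcr3 less (-0.39 ± 0.07). For Cxcr6 no agonist library came near a control. The chemokine gene Ccl4 fell from 63.6 ± 7.03 to 38.5 ± 2.52 CPM (-0.72 ± 0.07). Inhibitory receptor genes followed in part, with 7 of 18 lower and 4 higher: Vsir (VISTA) and Pdcd1 (PD-1) fell (-0.76 ± 0.05 and -0.47 ± 0.04), whereas Cd200 and Btla rose (0.43 ± 0.04 and 0.36 ± 0.05).

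Of 29 lineage transcription factor genes 15 fell and 9 rose (median log2 fold change -0.21). Bhlhe40, which promotes GM-CSF in helper T cells, rose from 117, 112 and 113 CPM to 249, 262 and 259.9 CPM (1.17 ± 0.03, adjusted p = 6.43e-31). Stat4, the signal transducer of IL-12, rose from 43.3, 40.8 and 38.5 CPM to 77.8, 76.2 and 77.3 CPM (0.92 ± 0.05, adjusted p = 1.91e-19), and in both cases the groups were well separated. Ikzf3 (Aiolos) fell from 128 ± 1.02 to 76.8 ± 5.36 CPM (-0.74 ± 0.04) and Hivep3 fell too (-0.67 ± 0.05). Among 19 AP-1, EGR and NR4A genes 7 rose and 5 fell: Jun rose (0.57 ± 0.05), while Egr2 and Egr3, early genes of antigen receptor signalling, and Bach2 fell (-0.38 ± 0.04, -0.51 ± 0.04 and -0.42 ± 0.04). MAPK feedback genes fell in 7 of 15 cases and rose in 3, with Dusp6 and Spry1 lower (-0.74 ± 0.08 and -0.43 ± 0.06) and Dusp14 higher (0.84 ± 0.07).

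**Figure D3:**
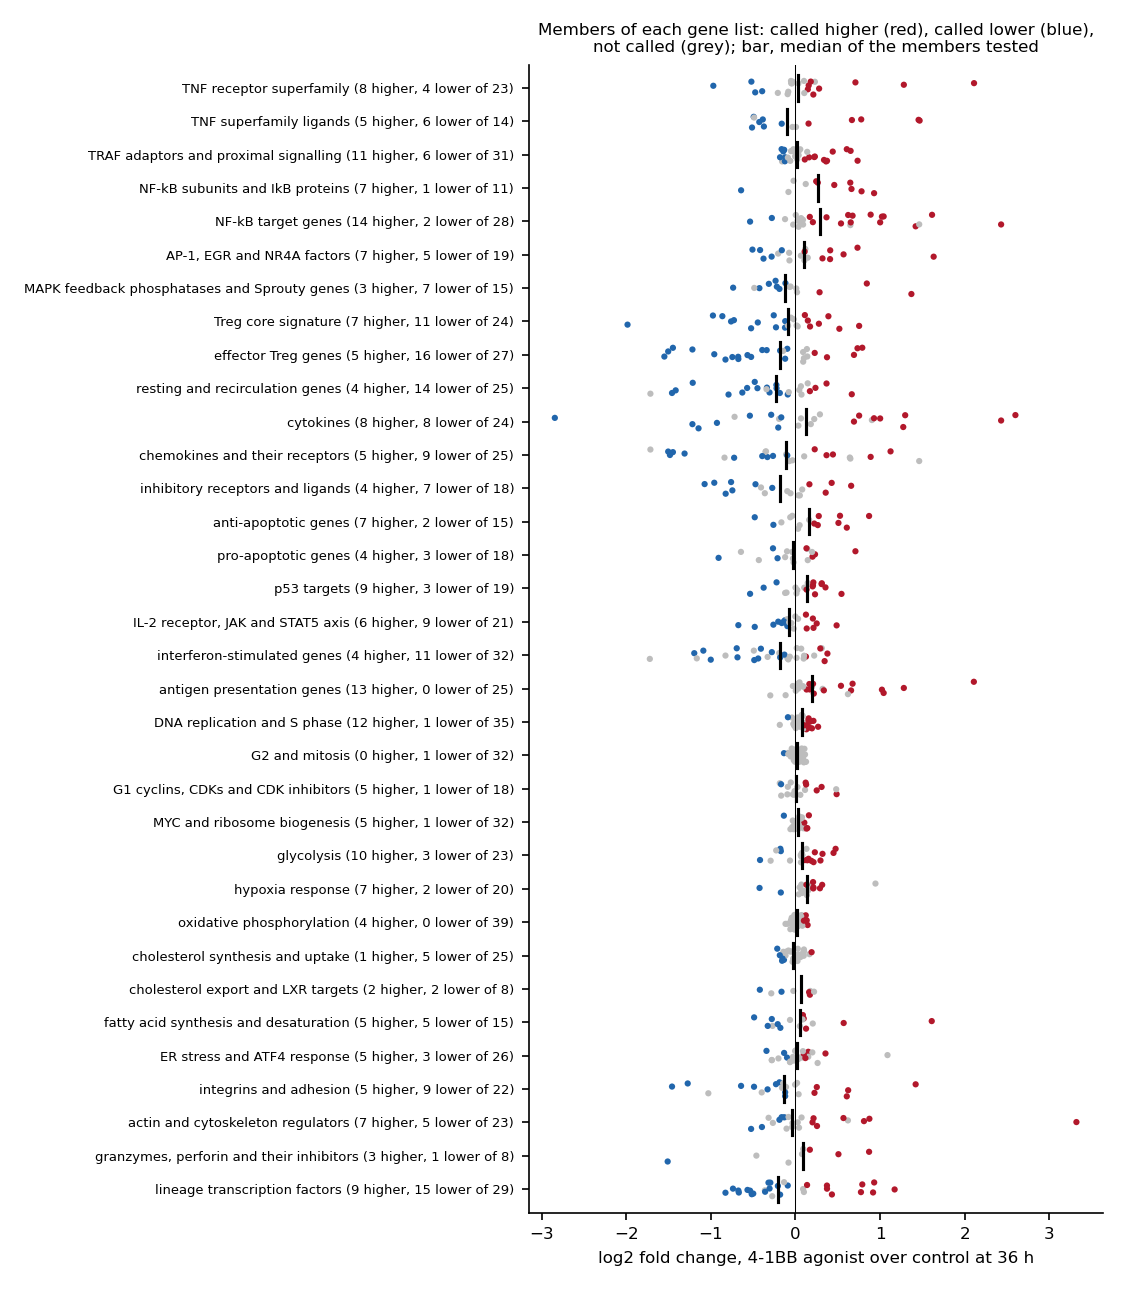
Log2 fold change of 4-1BB agonist over control at 36 h (x axis) for each tested member of 34 gene lists (rows), red where called higher, blue where called lower and grey where not called, with the list's median as a bar. Medians ran from -0.23 for resting and recirculation genes to 0.29 for NF-kB target genes, against 0.00 over all genes tested.

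Antigen presentation genes were called in 1 direction only at 36 h, with 13 of 25 higher, none lower (also 0 at an unadjusted p under 0.05 by edgeR and 0 by DESeq2) and a median log2 fold change of 0.20. At 18 h 13 were called higher and 2 lower. The list was chosen with earlier results of these data known, so its count is a description and no independent support. Cd74, the invariant chain, rose from 45.9, 43.4 and 48.3 CPM to 69.7, 75.4 and 74.7 CPM (0.67 ± 0.05, adjusted p = 6.01e-16). Ly75, which encodes the endocytic receptor DEC-205, rose from 158, 154 and 149 CPM to 216, 227 and 225 CPM (0.54 ± 0.04, adjusted p = 4.62e-17). The list shares Cd83, Cd80, Cd40 and Zbtb46 with the results above. The class II chain genes that pair with Cd74 were low. H2-Ab1 was at 1.48, 1.12 and 1.19 CPM in the controls and 2.12, 2.05 and 1.82 CPM with the agonist and rose (0.66 ± 0.24, adjusted p = 0.0455, but 0.0587 to 0.15 without any 1 library other than control replicate 1, 0.0736 by DESeq2 and 0.0609 without a filter on low counts), and H2-Aa was at 1.07, 0.986 and 0.739 CPM and 1.01, 1.10 and 1.35 CPM, overlapped and was not called (adjusted p = 0.465).

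Survival genes changed on both sides. Of 15 anti-apoptotic genes tested 7 rose and 2 fell (median log2 fold change 0.16). Serpinb9, the gene of a granzyme B inhibitor, rose from 86.0, 82.99 and 80.3 CPM to 154, 148 and 153 CPM (0.87 ± 0.04, adjusted p = 9.84e-23), and Serpinb6b and the A1 gene Bcl2a1d rose by 0.51 ± 0.05 and 0.53 ± 0.06; these have close paralogs, and reads can be split among them. Bcl2 fell from 105, 115 and 106 CPM to 77.4, 79.6 and 76.8 CPM (-0.48 ± 0.05, adjusted p = 1.79e-10). Of 18 pro-apoptotic genes 4 rose (22.2%) and 3 fell (16.7%, against 11.5% of all genes tested). Bcl2l11, which encodes the BCL2 antagonist BIM, fell from 12.29, 9.90 and 13.4 CPM to 5.75, 6.24 and 6.95 CPM (-0.91 ± 0.10, adjusted p = 3.47e-10). Thus transcripts of BCL2 and of its antagonist BIM were both lower. Of 19 p53 target genes 9 rose and 3 fell, led by Phlda3 (0.54 ± 0.06).

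Of 35 DNA replication genes 12 rose (34.3%, against 10.9% of all genes tested) and 1 fell, by small amounts with a median log2 fold change of 0.08 over the list, and E2f1 rose from 40.6 ± 2.18 to 48.9 ± 1.29 CPM (0.27 ± 0.05). Of 32 G2 and mitosis genes none rose and 1 (Nuf2, -0.14 ± 0.04) fell by edgeR's test, not so without agonist replicate 3 or control replicate 1 (adjusted p = 0.0668 and 0.0521), and the list's median was 0.02. At an unadjusted p under 0.05 edgeR had 4 of the 32 higher, and DESeq2 called none higher. Mki67, the proliferation marker of that list, was at 1379, 1445 and 1272 CPM and 1377, 1423 and 1431 CPM and was not called (0.05 ± 0.07, adjusted p = 0.71). Ccnd2, the gene of the G1 cyclin D2, was the leading gene of its list and rose from 1234, 1235 and 1196 CPM to 1699, 1711 and 1722 CPM (0.49 ± 0.04, adjusted p = 1.53e-15). In the IL-2 receptor and STAT5 list, which shares Ccnd2, 6 of 21 genes rose and 9 fell, with Il2rg and Stat5a higher (0.21 ± 0.03 and 0.21 ± 0.03) and the kinase gene Pim2 lower (-0.26 ± 0.04). Myc fell (-0.14 ± 0.03), and ribosome biogenesis genes had 5 of 32 higher (15.6%) and 1 lower.

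In metabolism, 10 of 23 glycolysis genes rose (43.5%) and 3 fell (13%, near the 11.5% over all genes tested), with a median log2 fold change of 0.08. Hk2, the inducible hexokinase gene, rose from 218, 213 and 205 CPM to 281, 298 and 289 CPM (0.45 ± 0.04, adjusted p = 3.31e-13). The lactate exporter gene Slc16a3 and the glucose transporter gene Slc2a1 rose by 0.47 ± 0.05 and 0.32 ± 0.04, without overlap of the groups. Of 20 hypoxia response genes 7 rose (35%) and 2 fell (10%, near the 11.5% over all genes tested). Of 39 oxidative phosphorylation genes 4 rose (10.3%, near the 10.9% over all genes tested) and none fell (2 at an unadjusted p under 0.05 by edgeR, 0 by DESeq2). Of 25 cholesterol synthesis genes 1 rose (4%) and 5 fell (20%). Fatty acid genes had 5 rising and 5 falling of 15, with Acsl3 and Scd1 lower (-0.49 ± 0.07 and -0.33 ± 0.08). Among 22 integrin and adhesion genes 9 fell and 5 rose, with Itga6 lower (-0.64 ± 0.04) and Vcam1, at 2.85 ± 0.242 and 7.62 ± 0.324 CPM, higher (1.42 ± 0.13).

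Markers of other cell types were looked at beside these groups, as sums of CPM of the unscaled library totals. The sum of 7 T cell markers ran from 1649 to 1691 in the controls and from 1502 to 1522 with the agonist, with 4 of the 7 lower, led by Cd3e (-0.38 ± 0.04), and 1 higher. The sum of 5 Treg identity genes ran from 4577 to 4669 and from 4381 to 4410.2, most of it Il2ra, which fell, while Tnfrsf18 rose and the other 3 were not called. In bulk libraries fewer cells of a type and less RNA per cell cannot be told apart. The 14 B cell markers summed to 274 to 289 CPM and 297 to 307 CPM, nearly all of it Ighm (260.5 to 275.8 and 280.9 to 287.9 CPM); none was at 0 in all 3 libraries of a group, though Cr2 and Fcer2a were at 0 in at least 1 agonist library, and Cd79a stayed below 0.3 CPM. Of the 13 tested 2 rose and 1 fell. Igkc rose from 3.15, 3.50 and 3.41 CPM to 6.81, 6.69 and 8.21 CPM (1.11 ± 0.31, adjusted p = 0.0526 without agonist replicate 3), and Cd22 rose from 0.325, 0.224 and 0.205 CPM to 0.454, 0.948 and 0.467 CPM (1.29 ± 0.43, but adjusted p = 0.248, 0.0745 and 0.0842 without agonist replicate 2 or control replicate 2 or 3). Bank1, the gene of a B cell scaffold protein, fell from 1.16, 1.30 and 0.863 CPM to 0.505, 0.349 and 0.513 CPM (-1.26 ± 0.35). The 16 myeloid and dendritic markers summed to 12.5 to 14.2 CPM and 7.67 to 8.78 CPM, with Siglech, Clec9a, Tyrobp and S100a8 at 0 in all 6 libraries. Most of that sum was Mpeg1 (medians 8.11 and 4.72 CPM) and Cd68 (3.13 and 1.76 CPM), which fell (-0.83 ± 0.12 and -0.55 ± 0.21), and the other 6 tested were not called. Cd68 was not called by DESeq2 (adjusted p = 0.0767), with the ribosomal RNA locus transcript as a covariate (0.0892) or without any library but agonist replicate 3 (0.0645 to 0.203).

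The 10 CD8 T, NK and gamma-delta T cell markers summed to 8.55 to 9.62 CPM and 7.72 to 9.80 CPM, overlapping, with Klrb1c, Ncr1 and Klra1 at 0. The 10 conventional helper markers summed to 201.4 to 215.1 CPM and 301.1 to 313.7 CPM, of which Tnfsf8 made up 142.7 to 149.6 and 244.8 to 253.1 CPM, and of 9 tested 2 rose (Tnfsf8 and Il21) and 2 fell (Cd40lg and Il17f, -1.15 ± 0.35, the latter not called without agonist replicate 2 or control replicate 2, adjusted p = 0.0708 and 0.267). The 9 stromal and endothelial markers summed to 53.7 to 56.3 CPM and 35.6 to 37.9 CPM, with Col3a1, Dcn, Cdh5 and Krt8 at 0. Of the 4 tested Pecam1 and Epcam, which made up most of the sum, fell (-0.50 ± 0.06 and -1.27 ± 0.10), and Col1a2 rose from 1.90, 2.20 and 1.48 CPM to 3.33, 2.45 and 3.50 CPM (0.74 ± 0.19). The 10 erythroid and platelet markers stayed at or below 0.4 CPM. The part of other cells in the cytokine, antigen presentation and marker changes was not tested.

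Whether the effect at 36 h was that of 18 h was asked with the 18 h libraries of the same agonist and their own controls, which share no library with the 36 h comparison. At 18 h 3690 genes were called (25.8%), 1814 higher (12.7%) and 1876 lower (13.1%). Of the 3215 genes called at 36 h, 2001 (62.2%) were called in the same direction at 18 h and 44 in the opposite one, and 91.9% had the same sign. The 2001 were 54.2% of the genes called at 18 h. Among the 349 genes changed by at least 2-fold at 36 h, 224 (64.2%) were called in the same direction and none in the opposite one by edgeR's test, with 0 also at an unadjusted p under 0.05 and by DESeq2. Scin, for example, was at 11.1, 12.2 and 13.2 CPM in the 18 h controls and 113, 120.0 and 124 CPM with the agonist, a log2 fold change of 3.29 ± 0.07, and the difference between times was 0.03 ± 0.10 (adjusted p = 0.937). The ribosomal RNA locus transcript took 8114 to 26030 CPM in the 18 h controls and 1548 to 4426 CPM in the 18 h agonist libraries, and without the 2 controls above 10000 CPM, which leaves 1 control, the 18 h count was 1969.

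The difference between the effects itself was tested as an interaction, and 626 genes (4.37%) were called, 335 with a more positive effect at 36 h (2.34%) and 291 with a more negative one (2.03%). Of these, 330 had the same sign and a smaller effect at 36 h, 78 the same sign and a larger effect, and 218 opposite signs, with both effects called for 44. Without the same 2 libraries the count was 289. Tnfrsf9 had the smallest p-value among genes whose effect was more positive at 36 h. It was at 561, 576 and 558 CPM in the 18 h controls and 418, 410.1 and 419 CPM with the agonist, so the receptor gene fell at 18 h (-0.44 ± 0.04) and rose at 36 h (0.18 ± 0.04), a difference of 0.62 ± 0.05 (adjusted p = 8.41e-13). The control libraries thus lay lower at 36 h than at 18 h and the agonist libraries higher, a comparison of times that was not tested.

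The orphan nuclear receptor gene Nr4a2, induced by antigen receptor signals, changed in the same way, from 36.6, 33.9 and 34.9 CPM to 23.5, 23.9 and 21.1 CPM at 18 h and from 34.0, 34.3 and 32.3 CPM to 42.0, 47.2 and 44.3 CPM at 36 h (difference 1.03 ± 0.09, adjusted p = 1.99e-12). Nr4a1, Crem, Atf3, S1pr1 and Txnip also fell at 18 h and rose at 36 h, with differences of 0.49 ± 0.05 for Nr4a1, 0.64 ± 0.07 for Crem, 0.77 ± 0.08 for Atf3, 0.62 ± 0.07 for S1pr1 and 0.56 ± 0.06 for Txnip. Gimap4, Acap1, Pcyt1a and the Treg chemokine receptor gene Ccr8 fell at both times, but by less at 36 h (0.63 ± 0.05, 0.60 ± 0.05, 0.53 ± 0.05 and 0.46 ± 0.05). At 36 h Nr4a1 was not called without agonist replicate 2 or 3 or control replicate 1 or 2 (adjusted p = 0.17, 0.103, 0.0815 and 0.184), and Ccr8 without any library but control replicate 2 (0.0642 to 0.15). Without a filter on low counts neither was called (0.0759 for Nr4a1 and 0.0793 for Ccr8). Lama5 fell at 18 h (-0.69 ± 0.06) and was not called at 36 h (0.01 ± 0.06, adjusted p = 0.946). On the glycolysis list 8 of 23 genes had an effect more positive at 36 h by edgeR's test, beside 2.34% of all genes tested. None had the reverse, with 0 also at an unadjusted p under 0.05 and by DESeq2. The pattern was not particular to glycolysis: of 19 AP-1, EGR and NR4A genes 8 had a more positive effect at 36 h and 2 a more negative one.

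Other effects were more negative at 36 h. Ly75 went from 122, 120.3 and 121 CPM to 317, 315 and 326 CPM at 18 h (1.40 ± 0.04), a rise that was smaller at 36 h (difference -0.86 ± 0.05, adjusted p = 3.25e-17). Cacnb3 rose from 4.59, 3.74 and 4.20 CPM to 66.5, 61.1 and 64.5 CPM at 18 h (3.94 ± 0.08), far more than at 36 h (difference -1.68 ± 0.13, adjusted p = 6.13e-13). Ncf1, Slamf6, Slc35b4, Thy1, Akr1b3, Stat5a and Lad1 also rose at both times and by less at 36 h. Eomes and Pim2 rose at 18 h (1.00 ± 0.10 and 0.34 ± 0.04) and fell at 36 h (-0.30 ± 0.07 and -0.26 ± 0.04), with differences of -1.29 ± 0.12 and -0.60 ± 0.06.

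**Figure D4:**
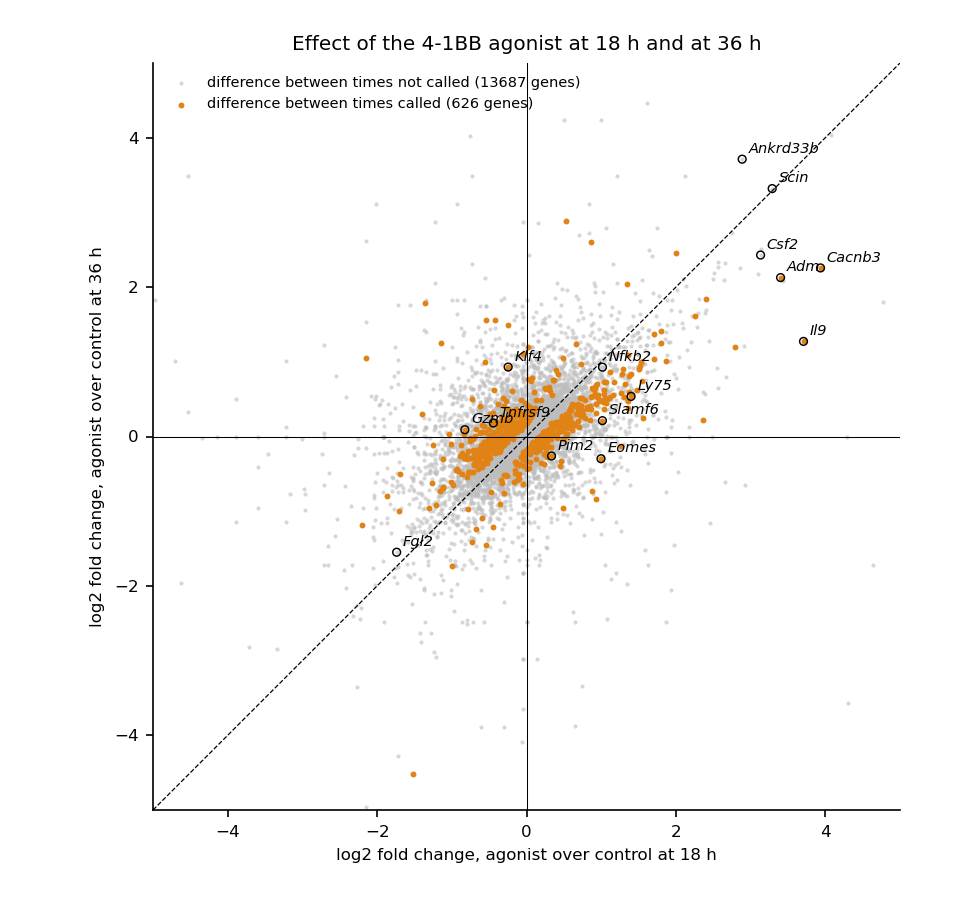
Log2 fold change of 4-1BB agonist over control at 18 h (x axis) and at 36 h (y axis) for each gene tested, orange for the 626 genes whose effects differed between the times and grey for the others, with equal effects on the dashed line. Scin lies on the line, Cacnb3, Il9 and Ly75 below it, and Tnfrsf9 left of 0 and above it; 23 genes lie outside the axes.

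Which of these changes differed from those with agonists of related receptors was asked by direct contrasts of the agonist groups at 36 h, which leave out the controls and share the 4-1BB libraries; the doses differed. Against the TNFR2 agonist 530 genes were called (3.7%, with 206 or 1.44% higher under the 4-1BB agonist and 324 or 2.26% lower), against the OX40 agonist 520 (3.63%, with 226 or 1.58% and 294 or 2.05%) and against the DR3 agonist 777 (5.43%, with 379 or 2.65% and 398 or 2.78%). The TNFR2 count was 993 in a fit of those groups alone, and it was 318, 324 and 285 without 4-1BB replicate 1, 2 or 3 and 296 and 231 without TNFR2 replicate 1 or 2. The OX40 count was 336 without OX40 replicate 1, and the DR3 count was 1218 in a fit of those groups alone. The ribosomal RNA locus transcript took 15000, 2752 and 3974 CPM with the TNFR2 agonist, 1585, 12810 and 8900 CPM with the OX40 agonist and 2771, 1206 and 14460 CPM with the DR3 agonist; without the highest library of each the counts were 296, 415 and 596.

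Ankrd33b, Csf2, Cacnb3 and Adm were higher with the 4-1BB agonist than with any of the other agonists. Ankrd33b, at 7.57, 9.98 and 9.15 CPM with the 4-1BB agonist, was at 3.72, 3.40 and 4.21 CPM with the TNFR2 agonist, 3.09, 2.99 and 2.95 with the OX40 agonist and 2.34, 2.02 and 2.33 with the DR3 agonist. The log2 differences were 1.24 ± 0.15, 1.56 ± 0.16 and 1.99 ± 0.16 (adjusted p = 2.85e-07, 4.64e-10 and 3.61e-13). Csf2 was at 6.48, 7.37 and 6.18 CPM with the TNFR2 agonist, 6.35, 5.91 and 6.29 CPM with the OX40 agonist and 5.86, 6.56 and 6.10 CPM with the DR3 agonist, with log2 differences of 0.96 ± 0.11, 1.06 ± 0.11 and 1.08 ± 0.11 (adjusted p = 4.05e-08, 7.55e-10 and 2.23e-10). For both genes the 3 libraries with the 4-1BB agonist lay above all 9 libraries with another agonist. Genes of these contrasts were named only if the groups did not overlap, so that separation is no separate result. For Cacnb3 the differences were 0.75 ± 0.07, 1.09 ± 0.08 and 1.40 ± 0.08, and for Adm 1.07 ± 0.11, 0.91 ± 0.10 and 0.94 ± 0.10.

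Scin was at 119, 112 and 119.6 CPM with the TNFR2 agonist, nearer to its level with the 4-1BB agonist than with the OX40 agonist, at 61.1, 64.6 and 59.1 CPM, or the DR3 agonist, at 66.0, 67.8 and 66.0 CPM. The log2 differences were 0.27 ± 0.05, 1.196 ± 0.05 and 1.08 ± 0.05 (adjusted p = 0.000378, 1.66e-22 and 5.38e-21). Mreg differed from the OX40 and DR3 groups (0.82 ± 0.07 and 0.96 ± 0.07) but its difference from the TNFR2 group was not called (0.18 ± 0.07, adjusted p = 0.115). Il13 was at 3.55, 3.71 and 3.32 CPM with the TNFR2 agonist, 2.69, 2.57 and 2.21 CPM with the OX40 agonist and 1.98, 2.47 and 1.22 CPM with the DR3 agonist. It was higher with the 4-1BB agonist than with the OX40 agonist (adjusted p = 0.00137) and the DR3 agonist (1.597 ± 0.25, adjusted p = 2.83e-05), and its difference from the TNFR2 agonist was not called (0.72 ± 0.23, adjusted p = 0.0795). Inhba, an activin subunit gene, and Idi2, an isoprenoid enzyme gene, were higher than with the DR3 agonist by 1.24 ± 0.18 and 1.43 ± 0.10. Both were also higher than with the TNFR2 agonist, by 0.74 and 0.99. For Inhba that call was lost without 4-1BB replicate 2 or TNFR2 replicate 1 or 2 (edgeR adjusted p = 0.0684, 0.0512 and 0.104). The 4-1BB ligand gene Tnfsf9 was higher than with the TNFR2 agonist by 0.49 ± 0.13. Its adjusted p was 0.0517 by DESeq2 and 0.105, 0.0799 and 0.176 by edgeR without 4-1BB replicate 1, 4-1BB replicate 3 or TNFR2 replicate 2.

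Lower with the 4-1BB than with the TNFR2 agonist were the chemokine receptor gene Cxcr4, at 15.7, 15.8 and 14.5 CPM with the TNFR2 agonist (-0.64 ± 0.08, adjusted p = 9.4e-07), the transcription factor gene Cebpb (-0.55 ± 0.09), Cxcr6 (-0.51 ± 0.11) and Klf2 (-0.75 ± 0.17, but adjusted p = 0.0626 without 4-1BB replicate 2 and 0.11 without TNFR2 replicate 2). Il2 was at 11.3, 13.6 and 11.3 CPM with the OX40 agonist and 11.1, 10.3 and 11.4 CPM with the DR3 agonist, against 6.91, 5.74 and 6.07 CPM with the 4-1BB agonist (log2 differences -0.93 ± 0.13 and -0.80 ± 0.13, adjusted p = 9.78e-07 and 1.26e-05). The 4-1BB libraries were below all 6 of these, as the rule that named the gene in both contrasts required. Tigit was lower than with the OX40 agonist (-0.62 ± 0.05), and so was Cxcr6 (-0.61). Fgl2 and the chemokine gene Ccl20 were lower than with the DR3 agonist (-0.82 ± 0.12 and -0.77 ± 0.12).

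**Figure D5:**
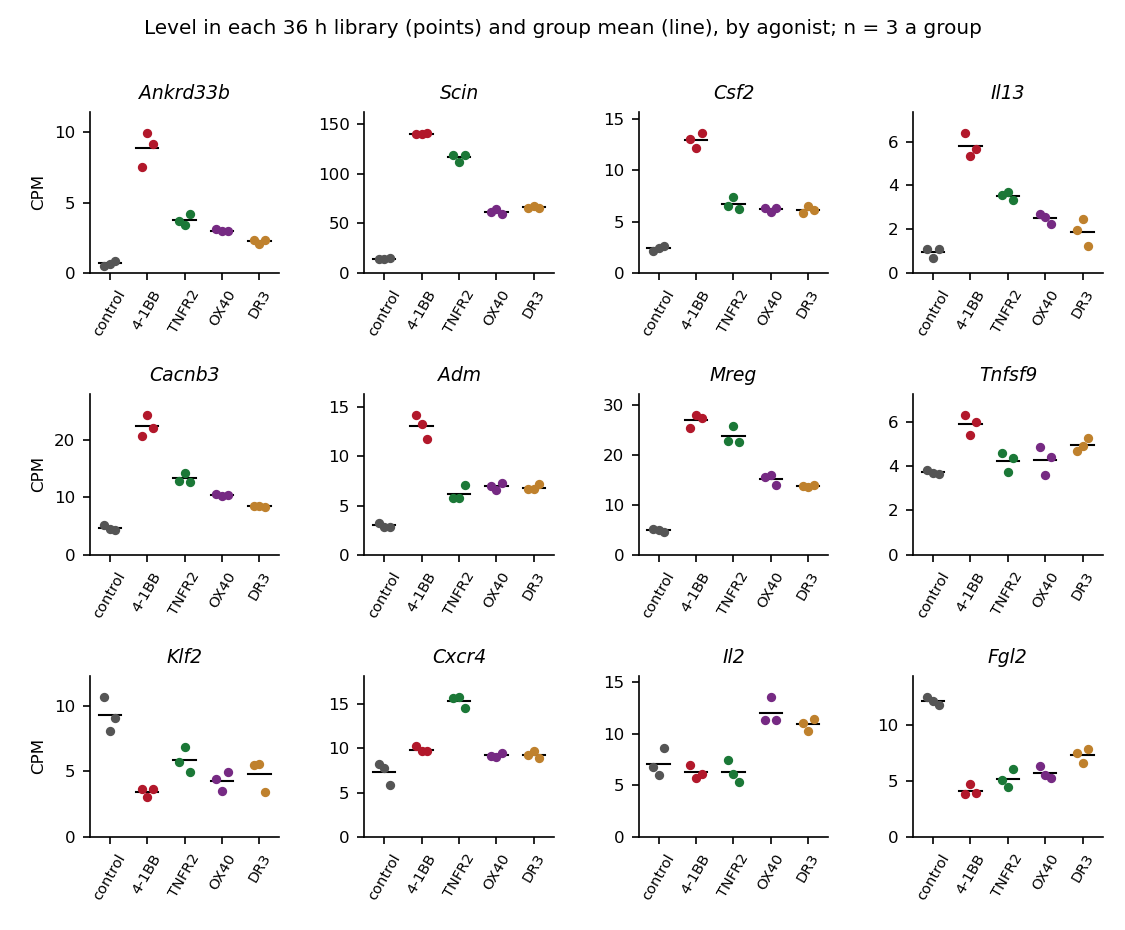
CPM (y axis, from 0) of 12 genes in each 36 h library (points) of the control, 4-1BB, TNFR2, OX40 and DR3 agonist groups, with the group mean as a line. Ankrd33b, Csf2, Cacnb3 and Adm are highest in the 4-1BB group, Cxcr4 in the TNFR2 group and Il2 in the OX40 and DR3 groups.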

How the data were processed

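Per the labels, RNA of purified Foxp3-GFP+ mouse Tregs was extracted (NucleoSpin RNA XS) and converted to amplified cDNA (SMART-Seq v4); that kit does not mark strand, so overlapping antisense genes cannot be told apart. Tools in the submitters' processing notes are RSEM 1.2.28, STAR 2.5.3a, Trimmomatic and FastQC, and the build is mm10; which annotation and settings were used is not stated in the sources at hand. The authors deposited 1 RSEM table per library with expected counts (estimated reads per gene, not scaled for depth), TPM and FPKM; the deposited TPM values were used only to compare levels between genes, and the authors' FPKM values were not used. Each table lists 54087 genes, of which 53973 matched 1 gene of GENCODE M21, the source of positions and identifiers. Depth was 11880270 to 38083925 expected counts per library.

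Expected counts were rounded, scaled by TMM and tested with edgeR 4.0.16 (R 4.3.3) by the robust quasi-likelihood F test, with filterByExpr, 1 mean for each of 11 groups and all 32 libraries, after the script was tested on simulated data. SEs are derived from F statistics. Alternatives were DESeq2 1.42.0, other scaling and filters, a fit of the compared groups only, a replicate block, the ribosomal RNA locus transcript as a covariate and leaving out each library. Members of the 34 gene lists and 8 marker lists were chosen with earlier results of these data known. Named genes were the 15 highest and 15 lowest fold changes of called genes whose groups did not overlap and whose higher group reached 5 CPM, up to 5 members a list by p-value, all members of the receptor, ligand, TRAF and NF-kB lists, Foxp3, 12 genes a direction for the difference between times and 10 a direction for each direct contrast; Areg, Cd86, Entpd1, H2-Aa, H2-Ab1, Id2, Ifng, Il1a, Il5, Il9, Maf, Mki67, Prdm1, Rora and Tgfb1 were named after their values were seen. Some results that the rule names are not reported here. Promoters are from RefSeq (GRCm38.p6).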

Additional observations from a re-analysis of the deposited data

Results flagged for a closer look

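The effect of the 4-1BB agonist differed between 36 h and 18 h, by the interaction test of edgeR, for 23 named genes. The 12 with an effect more positive at 36 h had log2 differences of 0.62 (Tnfrsf9), 1.03 (Nr4a2), 0.63 (Gimap4), 0.60 (Acap1), 0.53 (Pcyt1a), 0.64 (Crem), 0.49 (Nr4a1), 0.62 (S1pr1), 0.46 (Ccr8), 0.77 (Atf3), 0.56 (Txnip) and 0.70 (Lama5). The 11 with an effect more negative at 36 h had log2 differences of -0.86 (Ly75), -0.78 (Ncf1), -0.80 (Slamf6), -1.68 (Cacnb3), -0.59 (Slc35b4), -0.59 (Thy1), -1.29 (Eomes), -0.57 (Akr1b3), -0.49 (Stat5a), -0.60 (Pim2) and -0.54 (Lad1). The largest adjusted p-value among them was 1.63e-08, for Lama5 and Txnip. The ribosomal RNA locus transcript was lower with the agonist than in the controls at 18 h. With it as a covariate in edgeR the difference between times was called for 469 genes, against 626 without. Each of the 23 genes kept its call. What part the transcript had in these differences was not tested otherwise. Without the 2 18 h controls highest in it, which leaves 1 control whose spread is taken from the other groups, each of the 23 genes was still called.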

How the results depend on the processing

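The count at 36 h (3215) was 2919 with DESeq2, 3191 with DESeq2's size factors in edgeR, 3040 without a filter on low counts, 3017 with a stricter filter, 3414 in a fit of the 6 libraries alone, 3142 with the ribosomal RNA locus transcript as a covariate and 2458 to 2982 when 1 library was left out. With the stricter filter, which tests fewer genes, 76 genes were higher and 56 lower by at least 2-fold, and leaving out 1 library gave 182 to 218 and 124 to 145. The 18 h count and that of the difference between times, 3690 and 626, were 2994 to 3208 and 473 to 593 with 1 library left out, and 1969 and 289 without the 18 h controls above 10000 CPM at the ribosomal RNA locus, an alternative chosen after seeing the data that leaves 1 control. With the ribosomal RNA locus transcript as a covariate the 18 h count was 3155 and that of the difference between times 469. The counts against the TNFR2, OX40 and DR3 agonists were then 362, 480 and 740. With 1 library left out they ranged over 231 to 531, 336 to 415 and 534 to 599. Those against TNFR2 and DR3 were 993 and 1218 in a fit of the compared groups alone, and the cause was not tested.

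Of 200 genes whose 36 h change is given, 184 were called. Of these, 168 were tested under all 14 alternatives, and 155 of them kept call and direction under each; 16 were not tested under at least 1, for 15 of them the stricter filter, and 10 of the 16 kept call and direction under the rest. The other 19, each with a low level, a small change or both, lost the call under at least 1 and none reversed; beside those given with their values above, Ccl20 was called at 36 h but not under 9 alternatives. Among genes not called, the sign changed for Cd86 (-0.0049 without a filter), Lama5 (-0.000052 without a filter) and Nfkbiz (0.0052 with the covariate), and with 1 library left out for Cd86 (-0.054 to 0.062), Foxp3 (-0.0035 to 0.046), Ikzf2 (-0.034 to 0.063), Lama5 (-0.0295 to 0.0598), Mki67 (-0.0038 to 0.092) and Nfkbiz (-0.065 to 0.039). Against the TNFR2 agonist 6 of 20 named genes lost the call under at least 1 alternative (Inhba, Yes1, Tnfsf9, Klf2, Ntn1 and Ptgir), and of those named against OX40, DR3 or between times none did.

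Replicate numbers are shared between groups, but same-numbered control and agonist libraries did not deviate together (correlations -0.167, -0.0591 and 0.0244), so the numbers were not taken to pair them; with a replicate block the counts were 3167 at 36 h (3052 in the compared groups alone), 3641 at 18 h, 594 for the difference and 515, 512 and 772 against the TNFR2, OX40 and DR3 agonists. With the block Cd68 and Ccl20 were not called at 36 h (adjusted p = 0.0571 and 0.0525), nor in the compared groups alone Ccr8 and Map3k5 (0.0847 and 0.0917). Genes below about 1 CPM rest on few counts, and 3 libraries a group limit what small differences can be called.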
